A study of Mus musculus with 6 samples.

Results

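Chemokine receptors are G protein-coupled receptors that guide lymphocytes along gradients of chemokines, and the set a T cell carries is a record of where it can travel. Naive T cells enter lymph nodes through Ccr7 and its ligands Ccl19 and Ccl21, whereas activated, effector and many regulatory T (Treg) cells lower Ccr7 and take up receptors for skin, gut, follicle or inflamed tissue. Expression of 9 such receptors (Ccr2, Ccr4, Ccr6, Ccr7, Ccr8, Ccr9, Cxcr3, Cxcr4 and Cxcr6) was examined among the 45777 genes measured in CD4+Lrig1+ and CD4+Lrig1- T cells from mouse spleen. The genes were listed by name, with no threshold on their values but with earlier results of these data known, and all 9 passed the filter on low counts. Shares of all genes given beside them are therefore a background and not a test of the list.

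T cells were sorted by flow cytometry from spleens of female mice of the inbred strain C57BL/6, aged 7 weeks and not described as treated, by the presence or absence of surface Lrig1, a leucine-rich repeat protein known as a brake on ErbB receptors. No genotype, treatment or time point separates the groups, and the labels do not say whether libraries came from separate or pooled mice. The p-values therefore measure the spread between these libraries, which may be technical, and they borrow part of it from other genes. Libraries from 2 tables were used, each table holding 1 CD4+Lrig1+ and 1 CD4+Lrig1- library (set 1 and set 2), with 44865070 to 59977951 estimated counts per library. In bulk RNA, fewer cells that carry a receptor and less of its RNA per cell cannot be told apart.

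The sort and the cell identity were checked first. Lrig1 had 221 and 129 TMM-normalized CPM (counts relative to the size of their library) in the CD4+Lrig1+ libraries of set 1 and set 2 and 75.4 and 36.7 in the CD4+Lrig1- libraries. Foxp3, the lineage factor of Treg cells, had 589 and 615 CPM against 48.9 and 30.7. Cd4 lay between 924 and 1099.8 CPM in all 4 libraries, and the 9 T cell markers summed to 4600 and 6490 CPM in CD4+Lrig1+ and 4300 and 6330 in CD4+Lrig1- T cells. The libraries stood apart more by set than by group. Over all genes, which do not count as replicates, the correlation of log2 CPM was 0.96 and 0.958 between the groups of a set and 0.907 and 0.909 between the sets of a group. Values are therefore given per library, and each test is given without and with a term for the table that a library came from (the table block).

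The 9 receptors fell into 3 groups. Ccr8, Ccr6, Ccr4 and Cxcr3 had higher levels in the CD4+Lrig1+ libraries of both sets, Cxcr6, Ccr2, Ccr9 and Ccr7 were lower in both, and Cxcr4 differed little. For 8 of the 9 the libraries of the groups did not overlap, against 26.1% of the 16123 genes tested. edgeR's quasi-likelihood test without the block called none of the 9 at an adjusted p under 0.05, as it called 0% of all genes, although 6 of the 9 had an unadjusted p under 0.05 (5.59% of all genes). With the table block, 4 were called higher (14.6% of all genes) and 4 lower (12.8%). DESeq2's Wald test without the block called 3 higher (1.63% of all genes), namely Ccr8, Ccr4 and Ccr6, and 2 lower (0.31%), namely Ccr2 and Cxcr6, where it called 1.94% of all genes in either direction. With the block, 4 and 4 were called by this Wald test (11.5% and 12.2% of all genes), by limma on log2(FPKM + 1) (14.1% and 8.96%) and by edgeR at an adjusted p under 0.1 (18.3% and 17.5%).

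**Figure D1:**
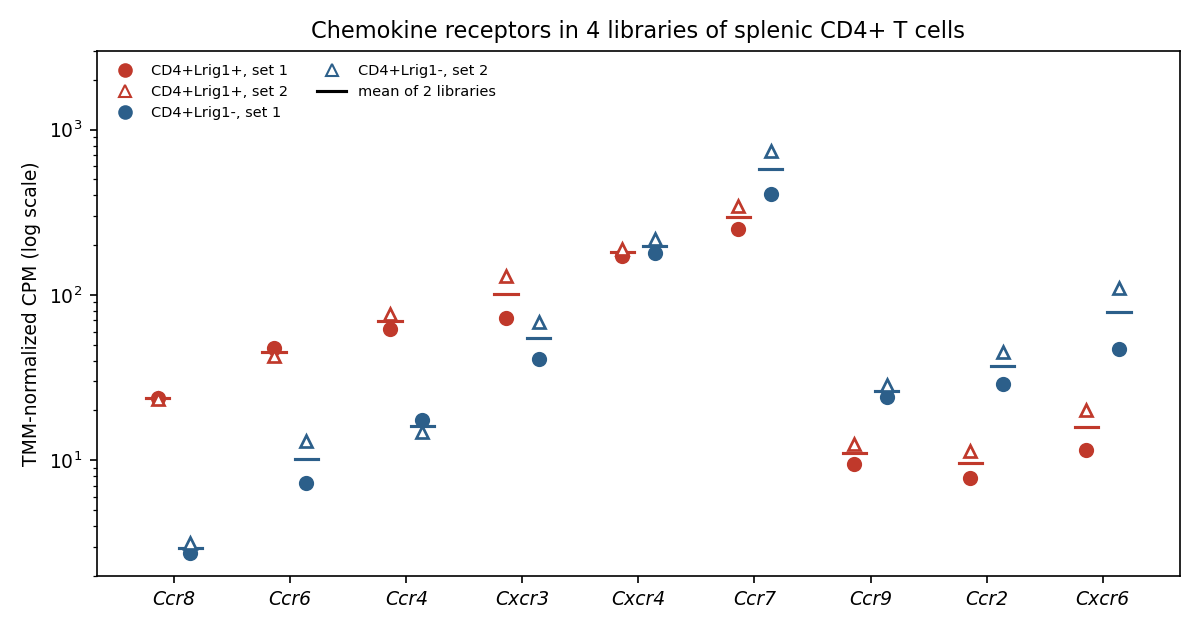
TMM-normalized CPM (log axis) of the 9 chemokine receptors in the 4 libraries. Circles are set 1, triangles set 2, red CD4+Lrig1+, blue CD4+Lrig1-, and bars the mean of 2 libraries. Ccr8 sits near 24 CPM in both red libraries and near 3 in both blue ones, while the Cxcr4 libraries of the groups overlap.

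Promoters are shown for some of the receptors that differed and for the one that differed least. RefSeq promoter windows on GRCm38.p6, 250 bases before to 50 after a transcript start, were at hand for 8 of the 9 genes. Both strands were searched for 8 short motifs. NF-kB was searched as GGGANNNNCC and STAT, the family of factors downstream of cytokine receptors, as TTCNNNGAA. AP-1, the pair of Jun and Fos, was searched as TGANTCA. For forkhead factors, the family of Foxp3, the letters were GTAAACA. For GATA factors they were AGATAA. T-box factors such as T-bet were searched as AGGTGT. For the KLF family the letters were CCACCC. The E-box, bound by E proteins, was searched as CAGGTG. Capitals mark the matches in the sequences, and each line is written 5′ to 3′ on the strand of the gene. Ccr8 (chr9:120091883-120092182, plus strand) and Ccr4 (chr9:114496495-114496794, minus strand) were higher, Cxcr6 (chr9:123806227-123806526, plus strand) was lower, and Cxcr4 (chr1:128592250-128592549, minus strand) differed least. A second start of Ccr6 (chr17:8242276-8242575, plus strand) is shown because its transcript had no count in CD4+Lrig1- T cells. It is a minor start of Ccr6, and the window of the first start, which gave most of the Ccr6 level, is not shown.
Ccr8: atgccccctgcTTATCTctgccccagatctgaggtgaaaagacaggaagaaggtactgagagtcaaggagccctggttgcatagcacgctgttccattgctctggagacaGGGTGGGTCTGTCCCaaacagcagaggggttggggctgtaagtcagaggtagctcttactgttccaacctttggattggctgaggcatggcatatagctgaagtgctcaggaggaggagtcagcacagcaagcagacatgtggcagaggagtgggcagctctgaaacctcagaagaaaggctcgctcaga
Ccr4: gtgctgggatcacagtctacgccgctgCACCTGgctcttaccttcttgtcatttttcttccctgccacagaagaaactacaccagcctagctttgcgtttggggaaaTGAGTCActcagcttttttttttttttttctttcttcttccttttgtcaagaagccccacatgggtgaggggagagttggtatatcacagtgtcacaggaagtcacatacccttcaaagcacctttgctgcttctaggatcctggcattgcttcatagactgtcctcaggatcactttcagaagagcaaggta
Ccr6 second start: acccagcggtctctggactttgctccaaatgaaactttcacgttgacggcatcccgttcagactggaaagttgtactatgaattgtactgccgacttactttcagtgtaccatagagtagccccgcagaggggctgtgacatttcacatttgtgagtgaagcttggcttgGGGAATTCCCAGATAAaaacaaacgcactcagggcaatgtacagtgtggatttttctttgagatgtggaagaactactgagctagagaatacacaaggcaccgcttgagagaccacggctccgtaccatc
Cxcr6: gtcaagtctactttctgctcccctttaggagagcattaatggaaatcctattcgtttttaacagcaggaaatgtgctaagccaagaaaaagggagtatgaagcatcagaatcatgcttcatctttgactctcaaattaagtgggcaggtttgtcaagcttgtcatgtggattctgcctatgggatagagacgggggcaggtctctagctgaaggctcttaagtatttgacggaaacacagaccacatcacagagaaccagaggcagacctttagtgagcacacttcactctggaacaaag
Cxcr4: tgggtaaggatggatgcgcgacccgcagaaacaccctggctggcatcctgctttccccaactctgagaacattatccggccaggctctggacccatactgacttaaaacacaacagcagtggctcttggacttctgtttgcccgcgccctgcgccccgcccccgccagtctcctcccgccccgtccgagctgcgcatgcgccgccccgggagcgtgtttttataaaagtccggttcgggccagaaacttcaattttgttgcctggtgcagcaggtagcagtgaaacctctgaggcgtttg

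The Ccr8 window held a GATA match and a KLF match that overlaps an NF-kB match by 1 base. The Ccr4 window held the single AP-1 match found among the receptors, to letters that read the same on both strands, and an E-box. The second Ccr6 start carried the palindrome GGGAATTCCC, an NF-kB match on both strands, directly before a GATA match. The windows of Cxcr6 and Cxcr4 held no match to any of the 8 motifs, but those of other lower receptors did: Ccr9 held NF-kB, KLF and E-box matches and Ccr2 a GATA match. The window of Cxcr3, which was higher, held an E-box. Among all 32851 promoter windows, 20.7% held the NF-kB letters, 7.81% AP-1, 11.2% GATA, 31.5% KLF and 20.2% the E-box. Forkhead (3.65%) and T-box (13.7%) letters were in none of the receptors' windows, and the STAT letters (8.3%) were only in the first Ccr6 window among them. The Cxcr4 window also differed in base composition, with 20 CG dinucleotides and 59.3% G and C. The median window had 7 CG dinucleotides and 52.7% G and C, and the other receptors' windows had 1 to 10. A match is a description of the letters and not a bound site.

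Ccr8 had the largest difference of the family. It is the receptor of Ccl1 and is known on skin-homing and tissue Treg cells (gene ID 12776, chromosome 9 of GRCm38, 120092133 to 120094906, 2 exons of which 1 is coding). It had 23.8 and 23.5 CPM in CD4+Lrig1+ T cells of set 1 and set 2 and 2.74 and 3.17 CPM in CD4+Lrig1- T cells. Libraries of a group lay close together, and the groups were far apart. The log2 ratio was 3.10 in set 1 (95% interval for counting error 2.86 to 3.39) and 2.88 in set 2 (2.66 to 3.13), which is 8.57-fold and 7.35-fold. The fitted log2 difference was 3.0 ± 0.33 (SE) without the block (edgeR, adjusted p = 0.501) and 3.0 ± 0.13 with it (adjusted p = 1.28e-05).

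Ccr4, which binds Ccl17 and Ccl22 and is carried by skin-homing memory and Treg cells, had 62.4 and 76.9 CPM in CD4+Lrig1+ and 17.5 and 14.7 CPM in CD4+Lrig1- T cells (gene ID 12773, chromosome 9, 114490316 to 114505476). The groups did not overlap, and the ratio was 3.55-fold in set 1 and 5.21-fold in set 2. Over all libraries the log2 fold change was 2.11 ± 0.30 (SE), with edgeR's adjusted p = 0.513 without the block and 7.22e-05 with it. From 90.4% to 95.6% of its FPKM (a level relative to transcript length and mapped fragments) came from the transcript that starts at the window shown.

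Ccr6, the receptor of Ccl20 on Th17 cells, B cells and gut-directed cells, was also higher in CD4+Lrig1+ T cells (gene ID 12458, chromosome 17, 8236041 to 8258519). It had 47.6 and 42.4 CPM in CD4+Lrig1+ and 7.29 and 13.0 in CD4+Lrig1- T cells. Among the 9 receptors its ratio was the least even between sets, 6.49-fold in set 1 and 3.26-fold in set 2, and the CD4+Lrig1- library of set 2 had 1.78 times the CPM of that of set 1. The log2 fold change was 2.15 ± 0.41 (SE, edgeR, adjusted p = 0.619) without and 2.19 ± 0.21 with the block (adjusted p = 4.19e-04).

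The 16 Ccr6 transcripts fell into 4 groups by where they start. The first start, near position 8236041, made up 66.9% and 91.7% of Ccr6 FPKM in CD4+Lrig1+ and 91.3% and 76.3% in CD4+Lrig1- T cells. The single transcript of the second start had 61 and 36 estimated counts in CD4+Lrig1+ and 0 and 0 in CD4+Lrig1- T cells, where a count of 0 allows up to 3 counts. It made up 4.17% and 2.52% of Ccr6 FPKM in the CD4+Lrig1+ libraries of set 1 and set 2. It was singled out after its values were seen, and a fit over transcripts with the table block gave it an adjusted p of 0.881. In that fit 0% of 45339 transcripts were called, with or without the block, so no transcript of the 9 genes was called.

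Cxcr3, the receptor of Cxcl9 and Cxcl10 on Th1 cells and on the Treg cells that follow them, had 72.5 and 131 CPM in CD4+Lrig1+ and 40.9 and 69.0 in CD4+Lrig1- T cells (gene ID 12766, chromosome X, 101731535 to 101734147). Set 2 was higher than set 1 in both groups, 1.80 times in CD4+Lrig1+ and 1.69 times in CD4+Lrig1- T cells, so that the CD4+Lrig1- library of set 2 nearly reached the CD4+Lrig1+ library of set 1. Within sets the ratio was even, 1.77-fold and 1.89-fold. The fit gave a log2 fold change of 0.89 ± 0.48 (SE, edgeR, adjusted p = 1.00, interval -0.44 to 2.22) without the block and 0.87 ± 0.07 with it (adjusted p = 2.06e-04).

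Cxcr6 was lowest in CD4+Lrig1+ relative to CD4+Lrig1- T cells. It binds Cxcl16 and is known on natural killer T (NKT) cells, effector T cells and tissue-resident T cells (gene ID 80901, chromosome 9, 123806477 to 123811754). It had 11.6 and 19.99 CPM in CD4+Lrig1+ and 47.1 and 110.1 CPM in CD4+Lrig1- T cells. The CD4+Lrig1- library of set 2 was 2.34 times that of set 1, and both lay above both CD4+Lrig1+ libraries. CD4+Lrig1- T cells held 4.06-fold more in set 1 and 5.50-fold more in set 2. The fitted log2 difference was -2.32 ± 0.60 (SE, edgeR, adjusted p = 0.676) and -2.25 ± 0.12 with the block (adjusted p = 2.98e-05). In the fit with no block, leaving out the CD4+Lrig1- library of set 1 gave -2.75 (adjusted p = 0.0419) and leaving out that of set 2 gave -1.57 (adjusted p = 1.00), the lone CD4+Lrig1- library then being taken to vary as the CD4+Lrig1+ libraries do. The gene Fyco1 spans all 5278 bases of Cxcr6 on the opposite strand, and it had 105 and 15.5 CPM in CD4+Lrig1+ and 109 and 17.7 in CD4+Lrig1- T cells. Whether counting used strand is not stated.

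Ccr2, the Ccl2 receptor best known for monocyte migration and also found on effector and memory T cells, had 7.75 and 11.4 CPM in CD4+Lrig1+ and 28.7 and 45.1 in CD4+Lrig1- T cells (gene ID 12772, chromosome 9, 124101918 to 124109140). CD4+Lrig1- T cells held 3.69-fold and 3.94-fold more, and the counting intervals of the sets overlapped. Its log2 fold change came to -1.95 ± 0.42 (SE, edgeR, adjusted p = 0.635) and -1.94 ± 0.10 with the block (adjusted p = 2.57e-05). One of its 4 transcripts, XM_011243064, took 1.82% and 1.56% of Ccr2 FPKM in CD4+Lrig1+ and 16.7% and 24.7% in CD4+Lrig1- T cells (adjusted p = 0.881 with the block over transcripts). It was singled out after its values were seen. The split between transcripts was uneven between sets, with XM_011243063 at 23.7% and 2.18% in CD4+Lrig1+ and 28.0% and 32.3% in CD4+Lrig1- T cells.

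Ccr9, the receptor of Ccl25 that directs cells to the small intestine and is also high on plasmacytoid dendritic cells (pDC), had 9.54 and 12.6 CPM in CD4+Lrig1+ and 24.1 and 28.4 in CD4+Lrig1- T cells (gene ID 12769, chromosome 9, 123767211 to 123783457). The groups were separate, with 2.52-fold and 2.26-fold more in CD4+Lrig1- T cells. Over the 4 libraries its log2 fold change was -1.25 ± 0.32 (SE, edgeR, adjusted p = 0.676) and -1.26 ± 0.10 with the block (adjusted p = 1.94e-04). An annotated noncoding gene on the opposite strand, AC165425.1, overlaps 15344 bases of Ccr9.

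Ccr7, which brings naive and central memory T cells into lymph nodes, was the most abundant of the receptors in every library (gene ID 12775, chromosome 11, 99144199 to 99155077, 3 exons, all with coding sequence). It had 249 and 344 CPM in CD4+Lrig1+ and 409.6 and 747 CPM in CD4+Lrig1- T cells. The groups were separate, and the closest pair was CD4+Lrig1+ of set 2 with CD4+Lrig1- of set 1. CD4+Lrig1- T cells held 1.65-fold more in set 1 and 2.17-fold more in set 2. The fit gave a log2 fold change of -0.97 ± 0.48 (SE, edgeR, adjusted p = 1.00, interval -2.31 to 0.38) and -0.92 ± 0.11 with the block (adjusted p = 0.0012).

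Cxcr4, the Cxcl12 receptor that holds cells in bone marrow and in lymphoid tissue, was the only one of the 9 whose groups overlapped (gene ID 12767, chromosome 1, 128588199 to 128592299). It had 171 and 190.5 CPM in CD4+Lrig1+ and 179 and 218 in CD4+Lrig1- T cells. The log2 fold change was -0.13, with a 95% interval of -1.01 to 0.74 without the block (edgeR, adjusted p = 1.00) and -0.31 to 0.05 with it (adjusted p = 0.264), so with the block a difference of 2-fold lies outside the interval. A minor transcript, XM_006529114, which starts inside an intron of the GENCODE gene model, took 0.486% and 0.744% of Cxcr4 FPKM in CD4+Lrig1+ and 3.33% and 3.43% in CD4+Lrig1- T cells (adjusted p = 0.881 with the block over transcripts). This transcript too was singled out after its values were seen.

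**Figure D2:**
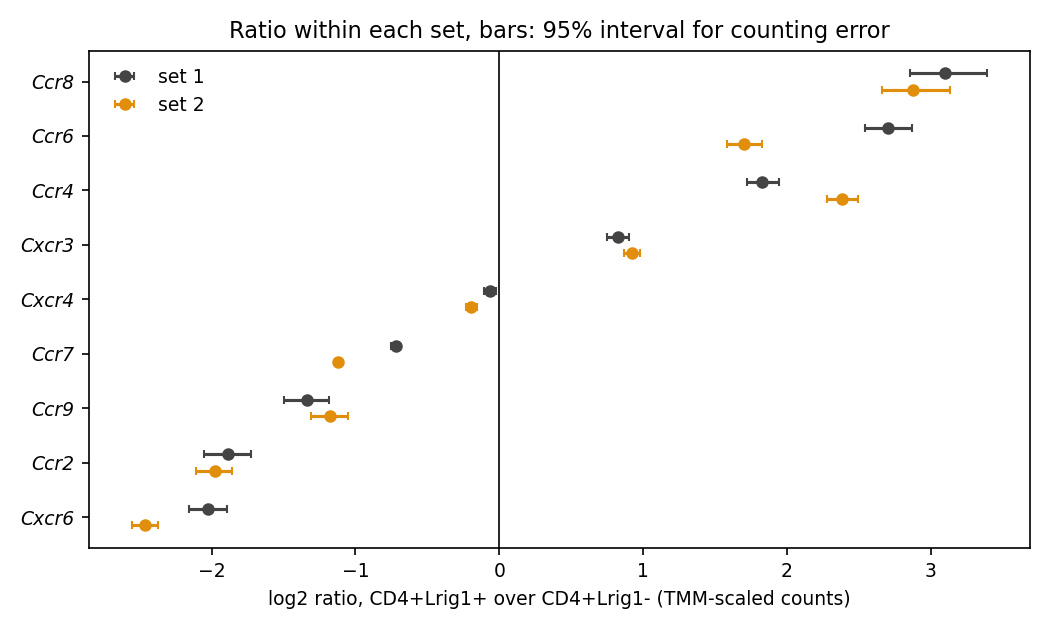
Log2 ratio of TMM-scaled counts, CD4+Lrig1+ over CD4+Lrig1-, within set 1 (grey) and set 2 (orange), with 95% exact binomial intervals for counting error. All 9 receptors keep their sign in both sets, from 3.10 for Ccr8 in set 1 to -2.46 for Cxcr6 in set 2.

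Direction was the same in both sets for 9 of the 9 receptors, as it was for 78.1% of all genes. At least a 2-fold difference in both sets was reached by 3 receptors upward (Ccr8, Ccr6 and Ccr4) and 3 downward (Cxcr6, Ccr2 and Ccr9), against 7.32% and 3.05% of all genes (10.4% in either direction). For Ccr2, Ccr8, Ccr9 and Cxcr3 the counting intervals of the sets overlapped, and for the other 5 they did not, so with TMM scaling the sets differed there by more than counting error. With library totals in place of TMM, the set 2 ratio of Cxcr4 (-0.092) lay inside its set 1 interval and that of Cxcr3 (1.02) outside its own. Reads of a pair are not independent and these intervals leave out the variation between cell samples, so they are narrower than the true error. The median log2 ratio over all genes was 0.00307 in set 1 and -0.0762 in set 2. A position on chromosome 9 was shared by 5 of the receptors, of which Ccr8 and Ccr4 were higher and Ccr2, Ccr9 and Cxcr6 lower.

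Levels of different receptors were compared by FPKM, which accounts for length. In CD4+Lrig1+ T cells the order was Ccr7 with 139.9 ± 25.2 FPKM (mean ± SD, n = 2), Cxcr4 with 92.8 ± 2.91, Cxcr3 with 58.3 ± 21.2, Ccr4 with 23.5 ± 2.37, Ccr8 with 19.1 ± 0.985, Ccr6 with 13.8 ± 1.81, Cxcr6 with 7.70 ± 2.59, Ccr2 with 2.45 ± 0.579 and Ccr9 with 2.35 ± 0.342. Only the neighbours Ccr2 and Ccr9 had overlapping libraries in this order. In CD4+Lrig1- T cells it was Ccr7 with 260.5 ± 84.9 FPKM, Cxcr4 with 98.3 ± 4.66, Cxcr6 with 36.5 ± 17.8, Cxcr3 with 30.3 ± 8.33, Ccr2 with 8.95 ± 2.0, Ccr9 with 5.42 ± 0.125, Ccr4 with 5.38 ± 1.08, Ccr6 with 3.08 ± 0.948 and Ccr8 with 2.28 ± 0.0314. Cxcr6 overlapped with Cxcr3 there, and Ccr9 with Ccr4. Cxcr6 moved from rank 8 among 24 chemokine receptors in both CD4+Lrig1+ libraries to rank 4 and rank 3 in the CD4+Lrig1- libraries, and Ccr8 from rank 6 in both to rank 11 in both.

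The make-up of the receptor transcripts differed accordingly. Of the summed FPKM of the 24 receptors, Ccr7 took 33.6% and 33.4% in CD4+Lrig1+ and 53.0% and 56.7% in CD4+Lrig1- T cells. Ccr4, Ccr8 and Cxcr3 took 5.99%, 5.44% and 11.9% in the CD4+Lrig1+ library of set 1 and 1.63%, 0.598% and 6.45% in the CD4+Lrig1- library of that set. Cxcr4 kept a near equal share, 25.0% against 25.1% in set 1 and 20.1% against 18.0% in set 2. Ccr7 FPKM was 6.18 and 8.59 times that of Ccr8 in CD4+Lrig1+ and 88.7 and 139 times in CD4+Lrig1- T cells. Cxcr3 FPKM was 7.38 and 7.69 times that of Cxcr6 in CD4+Lrig1+ but 1.02 and 0.737 times in CD4+Lrig1- T cells.

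**Figure D3:**
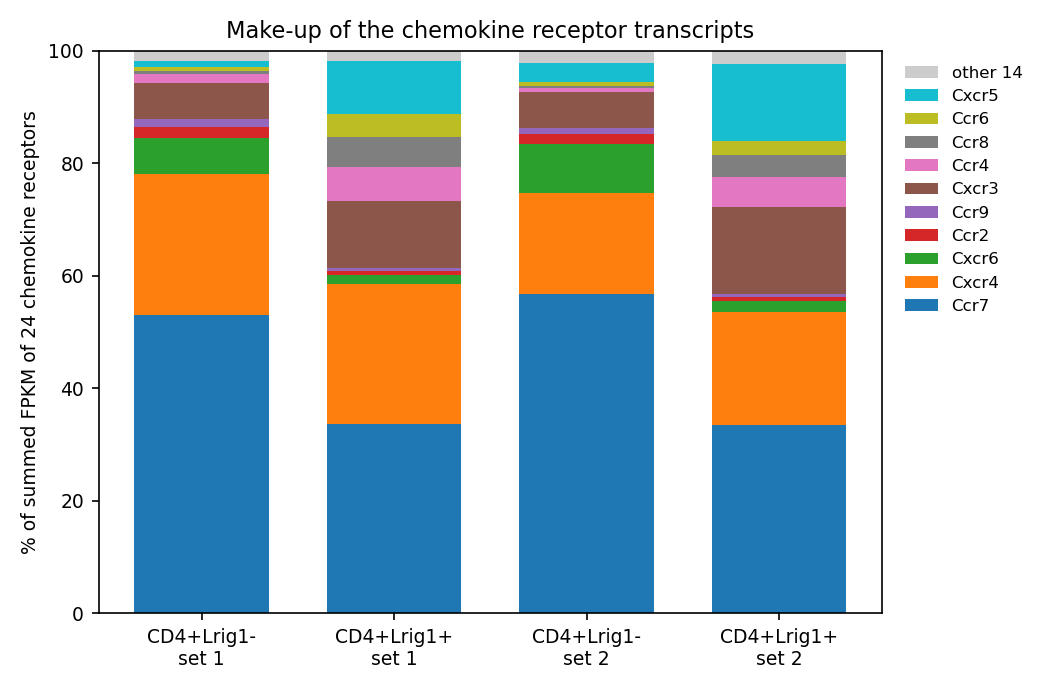
Share (%) of each receptor in the summed FPKM of 24 chemokine receptors, for each of the 4 libraries. Ccr7 takes 53.0% and 56.7% of the bar in CD4+Lrig1- and 33.6% and 33.4% in CD4+Lrig1+ T cells, where Cxcr5, Cxcr3, Ccr4, Ccr8 and Ccr6 take more.

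Other chemokine receptors were less abundant apart from Cxcr5, the Cxcl13 receptor of B cell follicles and follicular T cells. Cxcr5 had 93.99 and 187 CPM in CD4+Lrig1+ and 11.6 and 57.9 in CD4+Lrig1- T cells, which was higher in CD4+Lrig1+ T cells with the table block (log2 fold change 2.3, edgeR, adjusted p = 8.65e-04) and not called without it (adjusted p = 1.00). Of the 15 other receptors, 12 were tested and with the block 3 were called higher (14.6% of all genes) and 2 lower (12.8%), with a median log2 fold change of -0.74 beside -0.04 over all genes. Higher with Cxcr5 were Ccrl2, an atypical receptor for chemerin (7.13 and 8.81 CPM against 2.88 and 2.93), and Ccr3, the eotaxin receptor (1.81 and 10.5 against 1.04 and 7.07). Among those lower was the fractalkine receptor Cx3cr1 (0.423 and 2.32 against 2.15 and 8.87). Ccr1, Ccr10, Cxcr1, Cxcr2, Xcr1 and Ackr2 were at or below 2.43 CPM in every library and were not called.

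Chemokines themselves ranged from no count to the 89.2 CPM of Ccl5. Of 19 ligands listed, 8 had no count in any library (Ccl2, Ccl7, Ccl8, Ccl12, Ccl17, Ccl19, Ccl20 and Cxcl12), which allows up to 3 counts or 0.0522 to 0.0627 CPM per library. These include ligands of Ccr2, Ccr4, Ccr6, Ccr7 and Cxcr4. Of the 10 tested, 2 were called higher (14.6% of all genes) and 3 lower (12.8%) with the block, and the median log2 fold change was -0.53. Cxcl10, a ligand of Cxcr3, had 8.33 and 14.8 CPM in CD4+Lrig1+ and 1.09 and 2.15 in CD4+Lrig1- T cells (log2 fold change 2.83, edgeR, adjusted p = 0.635 without and 4.86e-05 with the block). Ccl5, a product of memory and cytotoxic lymphocytes, had 10.8 and 20.5 CPM against 40.7 and 89.2 (log2 fold change -2.06, adjusted p = 0.708 and 1.92e-05). Xcl1 had 1.58 and 3.62 CPM against 3.34 and 6.26, and Ccl25, the Ccr9 ligand, had 1.67 and 1.29 against 1.80 and 1.56. Ccl1, the ligand of Ccr8, had 0.788 and 2.12 CPM in CD4+Lrig1+ and 0.0418 and 0 CPM in CD4+Lrig1- T cells (adjusted p = 0.00359 with the block), and was picked out after its values were seen.

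Genes that carry or stop the signal of chemokine receptors ranged widely. Of 29 genes listed, 28 were tested, and 5 were called higher (14.6% of all genes) and 9 lower (12.8%) with the block, with a median log2 fold change of -0.084. Rgs16, which speeds the shut-off of G proteins and dampens chemokine responses, had 66.99 and 47.7 CPM in CD4+Lrig1+ and 2.67 and 1.98 in CD4+Lrig1- T cells. The log2 fold change of Rgs16, 4.62 (edgeR, adjusted p = 0.501 without and 3.79e-06 with the block), exceeded that of Ccr8. Rgs1, of the same family, had 118 and 117 CPM against 50.04 and 17.6 (log2 fold change 1.79, adjusted p = 0.827 and 0.00314), and Rgs3 had 171 and 129 against 111 and 79.1 (adjusted p = 6.18e-04 with the block). Gng2, a G protein gamma subunit, had 60.2 and 90.5 CPM against 35.9 and 55.4.

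Members of the list that were lower included a receptor kinase and a phosphoinositide 3-kinase subunit. Grk3, which phosphorylates active receptors, had 2.83 and 1.69 CPM in CD4+Lrig1+ and 21.2 and 3.52 in CD4+Lrig1- T cells (log2 fold change -2.45 without and -2.07 with the block, edgeR, adjusted p = 1.00 and 0.00791). Its ratio was uneven, -2.89 in set 1 and -1.04 in set 2 on the log2 scale. Pik3r5, a regulatory subunit downstream of G proteins, had 175 and 55.9 CPM against 325 and 122, the small GTPase Rap1b 251 and 452 against 350.2 and 732, and Rgs18 0.173 and 0.714 against 0.898 and 2.09, and all were called lower with the block. The core Gi protein Gnai2 had log2 ratios of 0.028 and -0.030 in set 1 and set 2, and its partner Gnb1 0.031 and -0.022.

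Genes of homing and retention were tested for 23 of 23, with 7 called higher and 9 lower with the block, beside 27.4% of all genes called in either direction. Their median log2 fold change was -0.095. Itgae, the alpha E integrin (CD103) that binds E-cadherin, had 58.1 and 58.0 CPM in CD4+Lrig1+ and 6.68 and 8.05 in CD4+Lrig1- T cells (log2 fold change 2.98, edgeR, adjusted p = 0.501 without and 8.78e-06 with the block). Gpr15, a colon homing receptor, had 8.48 and 14.4 CPM against 1.46 and 2.43. Gpr55, a lipid receptor, had 16.7 and 16.4 against 5.58 and 5.78. The integrin Itgb1 (log2 ratio 1.48 and 1.55 in set 1 and set 2), the hyaluronan receptor Cd44 (1.14 and 1.14) and the selectin ligand enzyme Fut7 (1.10 and 1.63) were also called higher with the block.

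Lower with the block were the sialyltransferase St3gal6 (7.999 and 12.2 CPM against 19.5 and 38.8) and the fucosyltransferase Fut4 (0.596 and 1.24 against 2.17 and 2.26). S1pr1, the sphingosine 1-phosphate receptor that lets T cells leave lymphoid organs, and Klf2, which drives S1pr1, were called lower as Ccr7 was and were picked out after their values were seen. S1pr1 had log2 ratios of -0.70 and -0.96 in set 1 and set 2, and Klf2 -0.56 and -0.53. Over the 73 tested genes of these 4 lists, edgeR without the block called 0, beside 0% of all genes, with 13 at an unadjusted p under 0.05 (5.59% of all genes), and DESeq2's Wald test without the block called 5 higher (1.63%) and 0 lower (0.31%).

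**Figure D4:**
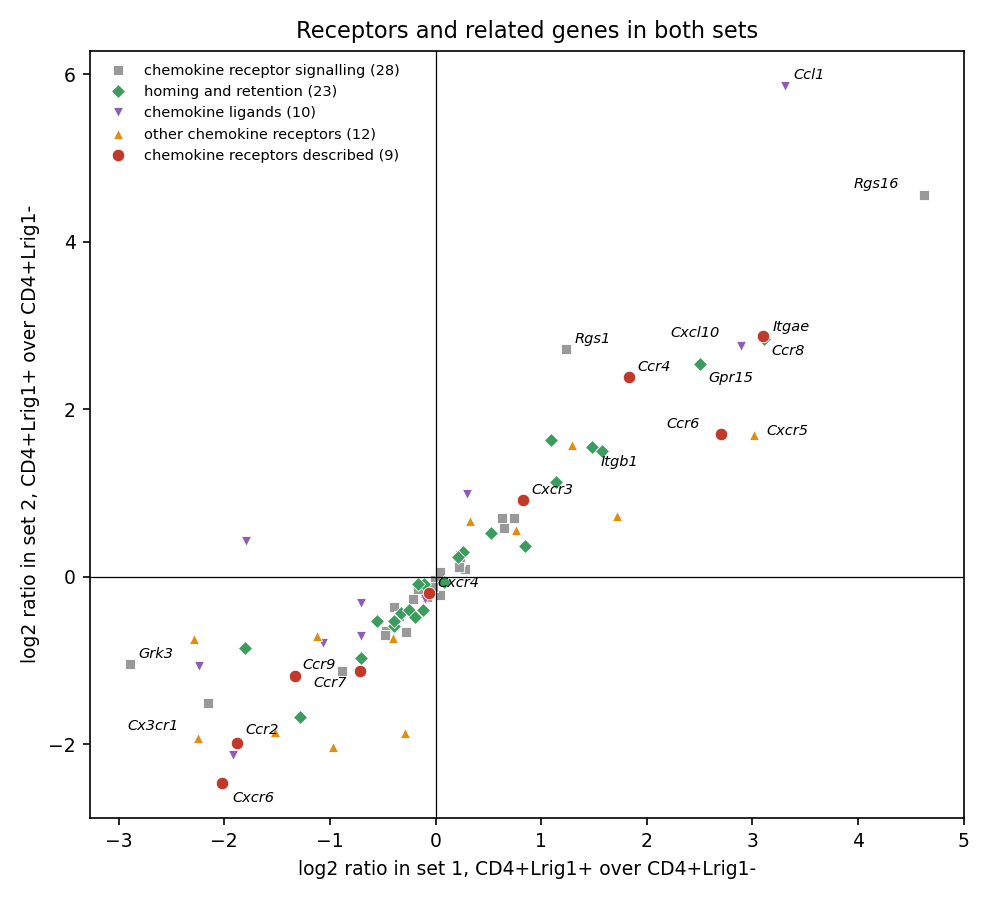
Log2 ratio between CD4+Lrig1+ and CD4+Lrig1- libraries (positive where CD4+Lrig1+ is higher) in set 1 (x axis) and set 2 (y axis) for the tested genes of 5 lists. The 9 receptors (red) lie at the upper right or lower left, with the same sign in both sets, Ccr8 beside Itgae, and Rgs16 is farther out at 4.63 and 4.57. The position of Ccl1 rests on few counts, with 0.0418 and 0 CPM in the CD4+Lrig1- libraries.

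Across the 4 libraries, the genes with the pattern most like Ccr8 among 12784 genes were Itgae, Mctp1 and Rad51b, with root mean square differences of 0.0227, 0.0784 and 0.0805 in centred log2 CPM. Those most like Ccr7 were Rbpms, Nuak2 and Csf3r at 0.037, 0.0401 and 0.0443. With 4 libraries of 2 groups, many genes can share a pattern by their group difference alone.

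Some markers of other cell types moved with some receptors, and their part in the results was not tested. For comparison, edgeR with the block called 14.6% of all genes higher and 12.8% lower. The 6 Treg markers summed to 2150 and 1780 CPM in CD4+Lrig1+ and 227 and 149 in CD4+Lrig1- T cells, and all 6 were called higher with the block, in the direction of Ccr8, Ccr4, Ccr6 and Cxcr3. Beside the lower Cxcr6 and Ccr2, 6 of 8 natural killer (NK) cell markers were called lower with the block, among them Klrb1c with 6.29 and 13.6 CPM against 21.9 and 46.7, whereas Eomes was called higher. The NK sum was 32.2 and 73.5 CPM in CD4+Lrig1+ and 32.0 and 105 in CD4+Lrig1- T cells. Of the innate-like T cell markers 2 of 4 tested were called lower: Zbtb16, the lineage factor of NKT cells, with 5.83 and 1.31 CPM against 23.2 and 4.52, and Trdc with 4.50 and 9.49 against 8.75 and 18.9. That list summed to 14.4 and 14.3 CPM against 36.0 and 25.9, and Sox13 was at 0 in the CD4+Lrig1+ library of set 2.

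Beside the lower Ccr9, 3 of 4 pDC markers were called lower (12.8% of all genes), namely Siglech (3.77 and 2.54 CPM against 12.6 and 27.0), Klk1 and Cox6a2. Pacsin1 had 114 and 77.8 CPM against 95.8 and 68.9 and made up most of the sum of the list, 119 and 80.7 CPM against 111 and 105. Of 10 myeloid markers 2 were called higher (14.6% of all genes), Csf1r with 13.2 and 65.9 CPM against 6.39 and 32.2 and Cybb with 48.6 and 94.7 against 14.8 and 66.5. A further 3 were called lower (12.8% of all genes), among them Itgam with 4.38 and 4.46 CPM against 10.2 and 14.6. The list summed to 108 and 345 CPM against 102 and 357. The 10 B cell markers, of which 2 were called lower (12.8% of all genes), summed to 98.3 and 391 CPM in CD4+Lrig1+ and 78.5 and 775 in CD4+Lrig1- T cells. B cells also carry Cxcr5, Ccr6 and Ccr7. Ccr7 and Cxcr5 were, like the B cell sum, higher in set 2 than in set 1 in both groups. So were Cxcr3, Cxcr6, Ccr2, Ccr9 and Cxcr4, by unlike amounts. In CD4+Lrig1+ and CD4+Lrig1- T cells, set 2 was 1.99 and 4.98 times set 1 for Cxcr5 and 1.38 and 1.82 times for Ccr7. It was 1.73 and 2.34 times for Cxcr6 and 1.11 and 1.22 times for Cxcr4. The part of B cells in this rise was not tested. Ccr6 and Ccr8 rose in set 2 only in CD4+Lrig1- T cells, and Ccr4 only in CD4+Lrig1+ T cells. Between groups, Cxcr5 and the B cell sum moved the same way in set 1. In set 2 they moved in opposite ways, with Cxcr5 at 187 CPM where Lrig1 was present and 57.9 CPM where it was absent. Cd8a and Cd8b1 were both called lower (12.8% of all genes) and summed to 14.1 and 51.6 CPM against 19.5 and 97.3. Of the 5 erythroid markers edgeR with the block called 0 (27.4% of all genes in either direction), with 0 at an unadjusted p under 0.05. They summed to 8.44 and 71.5 CPM against 8.08 and 81.7.

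**Figure D5:**
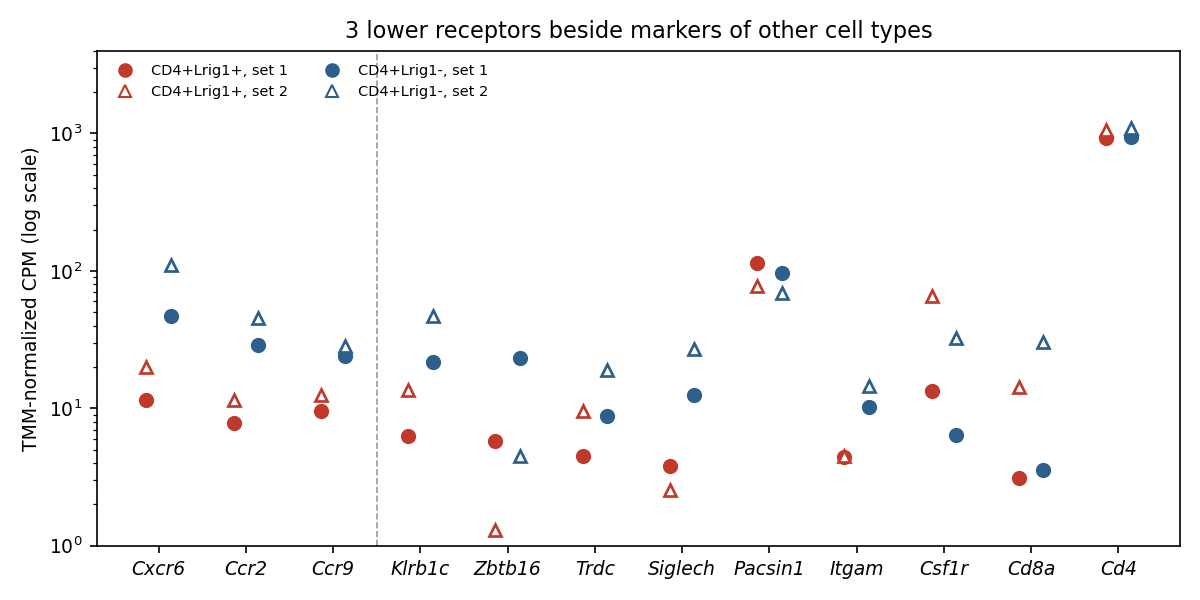
TMM-normalized CPM (log axis) of Cxcr6, Ccr2 and Ccr9 beside markers of NK cells (Klrb1c), innate-like T cells (Zbtb16, Trdc), pDC (Siglech, Pacsin1), myeloid cells (Itgam, Csf1r), CD8 T cells (Cd8a) and CD4 T cells (Cd4) in the 4 libraries; symbols as in the plot of receptor levels. Klrb1c at 6.29 to 46.7 CPM spans about the range of Ccr2, Csf1r and Pacsin1 are higher in the CD4+Lrig1+ library of both sets, and Cd4 lies from 924 to 1099.8 throughout.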

How the data were processed

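RNA of sorted CD4+ T cells of the spleen, with or without surface Lrig1, was sequenced as paired reads after a stranded mRNA preparation. Per the labels and methods, the authors trimmed reads with Trimmomatic 0.38, mapped them with HISAT2 2.1.0 and ran StringTie 2.1.3b (builds GRCm38 and mm10 are named by the submitters' processing notes). The estimated counts were deposited by the authors for each of 129299 RefSeq transcripts and are not normalized. The FPKM values were deposited by the authors per transcript, scaled by length and by mapped fragments. TPM (4 columns) was not used. The labels list 6 samples and 4 libraries entered, since the names of the 6 remaining per-sample columns, in another table, leave the Lrig1 group open.

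Counts and FPKM were summed per gene symbol and counts rounded. In R 4.3.3, low genes were dropped by filterByExpr and the rest tested by edgeR 4.0.16 (TMM, quasi-likelihood, no covariate), with Benjamini-Hochberg adjustment over 16123 genes and a threshold of 0.05. The fit had 2 residual degrees of freedom between libraries, and 1 with the table block. edgeR adds to these from the spread of the other genes, to a median total of 4.02 and, with the block, 7.21. Its p-values with the block therefore rest mostly on spread shared over genes. Log2 ratios of the libraries of a table had a prior count of 2 added and exact binomial 95% intervals (scipy 1.17.1), which cover counting error only. With 2 against 2 libraries an exact permutation p cannot go below 0.333. The code was tested on simulated data. Gene positions come from the deposited loci, exons and overlaps from GENCODE M21.

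The receptors and all lists (other receptors, ligands, signalling, homing, and markers of T, Treg, B, myeloid, pDC, NK, CD8, innate-like and erythroid cells) were chosen with earlier results of these data known. Genes named were the 9 receptors, other receptors with a mean of at least 10 counts, of each other list up to 8 genes with the largest absolute log2 fold change among those with a mean of at least 50 counts, Foxp3 and Lrig1, the 3 genes nearest in pattern to Ccr8 and Ccr7, and markers that moved with a result. Alternatives were DESeq2 1.42.0 (size factors, Wald test), other count filters, limma 3.58.1 on FPKM at the log2 scale with a pseudocount of 1 or 0.1, and an adjusted p under 0.1. Others were the table block, leaving out each library, a prior count of 0.5, library totals in place of TMM, and FPKM ratios. The block was run alone and with DESeq2's Wald test, DESeq2's size factors, no filter on low counts, limma with a pseudocount of 1 or an adjusted p under 0.1. It was not run with the other filters or a pseudocount of 0.1. A fit over transcripts was chosen after seeing the data. Some genes of these lists are counted in the totals but not reported here by name.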

Additional observations from a re-analysis of the deposited data

Results flagged for a closer look

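Among the values given beside the receptors, 5 summed marker lists had log2 ratios (positive where CD4+Lrig1+ is higher) with opposite signs in the sets, 1 library against 1 in each, and the difference between sets was not tested. These were the B cell markers (0.32 in set 1 and -0.99 in set 2), the myeloid markers (0.085 and -0.052), the pDC markers (0.10 and -0.38), the NK cell markers (0.0077 and -0.52) and the erythroid markers (0.063 and -0.19). In such sums the genes with the highest CPM weigh most. Lower in both sets were 7 of 10 B cell, 4 of 10 myeloid, 3 of 4 pDC, 7 of 8 NK cell and 2 of 5 erythroid markers. Higher in both sets were 0, 3, 1, 1 and 1 of them. None of the 9 receptors had opposite signs in the sets.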

How the results depend on the processing

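No paired analysis was possible because the columns carry no replicate numbers, as far as pairing by replicate number goes. Libraries were paired by table instead, with the table as a block. With it, 4 of the 9 receptors were called higher and 4 lower instead of 0 and 0, alone or together with DESeq2's Wald test, DESeq2's size factors, no filter on low counts, limma on log2(FPKM + 1) or an adjusted p under 0.1. Cxcr4 was not called in any of these fits. Of the other receptor, ligand, signalling and homing genes, 17 were called higher and 23 lower with the block, 19 and 22 with the block and DESeq2's Wald test, 18 and 22 with DESeq2's size factors, 14 and 12 with no filter, 16 and 15 with limma, and 21 and 25 at an adjusted p under 0.1, against 0 and 0 without it. DESeq2's Wald test without the block called 3 receptors higher and 2 lower, and 5 of the other genes higher and 0 lower. Without the block, DESeq2's size factors, both filters, limma with either pseudocount and an adjusted p under 0.1 called 0 receptors.

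Leaving out each library in turn called 0 receptors higher and 0 to 1 lower (Cxcr6, where the CD4+Lrig1- library of set 1 was left out), and 0 to 1 of the other genes higher and 0 lower. The fold changes of the receptors kept their sign under every alternative run except that of Cxcr4, which ranged from -0.23 to 0.018 and was positive where the CD4+Lrig1- library of set 2 was left out. Without that library, Ccr7 was at -0.46, Cxcr6 at -1.57 and Cxcr3 at 1.32, and Cxcr3 was at 0.39 without the CD4+Lrig1+ library of set 2. Leaving out a library in the fit with the block was not run, since no residual degree of freedom is left, and neither was a block by replicate number. Transcripts in place of genes, an alternative chosen after seeing the data, called 0 receptors with and without the block. Of the 18 ratios within sets under 3 alternatives, 45 values stayed within the counting interval, 9 did not and 0 changed sign; library totals in place of TMM shifted all ratios of set 2 by 0.10. With 2 libraries per group, the comparisons rest on few replicates, and the effect of depth was not tested.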
